A study of Mus musculus with 12 samples.

Results

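The immediate early genes studied here are the 10 transcription factor genes Nr4a1, Nr4a2, Nr4a3, Egr1, Egr2, Egr3, Fos, Fosb, Jun and Junb, taken by name, with every probe set annotated to them. They had 20 of the 45101 probe sets on the array, and 14 of the 20 reached log2 5 on at least 2 arrays. Of the 34958 probe sets annotated to 1 gene symbol, 17901 did so, and these are the kept probe sets. Each of the 10 genes kept at least 1 probe set. Of the 6 that were not kept, 3 belonged to Nr4a2, 2 to Nr4a3 and 1 to Egr3, and these stayed at or below 3.42 on every array.

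Expression was measured on 12 Affymetrix arrays of mouse CD4 T cells sorted from mice carrying 1 Venus reporter allele at S1pr2, which all groups shared, 10 days after subcutaneous immunization with CGG in CFA. Each array held the pooled cells of 2 to 6 mice. Venus-high Tfh cells (CXCR5+ PD1-high CD44-high, 3 arrays) and Venus-low Tfh cells (the same gate with low Venus, 3 arrays) came from lymph nodes. PD1-intermediate Th cells (CXCR5+ CD44-high, 2 arrays) and PD1-low Th cells (CXCR5-low CD44-high, 2 arrays) came from lymph nodes as well. Naive CD4 T cells (CD44-low CD62L-high, 2 arrays) came from spleen, so tissue and cell state cannot be told apart in any comparison with them, and the labels are unclear on whether their donors had been immunized. Tfh cells are follicular helper T cells, which help B cells in germinal centres, and Th cells are other helper T cells.

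Immediate early genes are switched on within minutes of a signal, without new protein synthesis. In T cells, engagement of the T cell receptor (TCR) activates kinases and calcium signalling, which act on factors already present at these promoters, such as SRF with its ternary complex partners and CREB. Nr4a genes encode orphan nuclear receptors often read as a record of recent TCR signalling, Egr genes encode zinc finger factors that restrain as well as drive T cell responses, and Fos and Jun proteins pair to form AP-1. These transcripts also respond to other stimuli, handling of cells among them.

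The arrays fell into 3 sets by the distribution of their values, which the labels do not name. Set 1 held the first array of Venus-high Tfh, Venus-low Tfh and naive cells. Set 2 held the second array of those groups and the first PD1-low array. Set 3 held the third Tfh arrays, both PD1-intermediate arrays and the second PD1-low array. PD1-intermediate cells were therefore measured in set 3 alone, and naive cells were not measured there. Pool size, given by the labels, ran along these sets. The lymph node arrays held 6 mice each in set 2 and 4 mice each in sets 1 and 3, and each naive array held 2. The 75% quantile of the signals was 8.50 to 8.55 in set 1, 8.68 to 8.76 in set 2 and 9.39 to 9.42 in set 3, and what the sets stand for was not tested. All 6 CD4 T cell marker genes were kept. Of the 7 B cell markers, Cd79a, Ms4a1, Blnk and Cr2 lay under log2 5 on every array, as did 8 of the 9 myeloid markers, both red cell markers, and Cd8a and Ncr1.

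Most of the 14 probe sets differed between sort groups, and most differed between array sets as well. In a limma fit holding both terms, 10 of 14 passed the F test of sort group at an adjusted p under 0.05 (Benjamini-Hochberg over all kept probe sets), against 37.7% of all kept probe sets. The F test of array set was passed by 9 of 14, against 81.8% of all kept probe sets. Both tests were passed by 5 (29.5% of all kept probe sets), sort group alone by 5 and array set alone by 4. Sort group on its own took up a median of 61.54% of the variance of the 14 probe sets and array set 42.99%. Over all kept probe sets these medians were 42.28% and 69.2%. The sort group share was above the array set share for 8 of the 14, and for 35.08% of all kept probe sets.

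**Figure D1:**
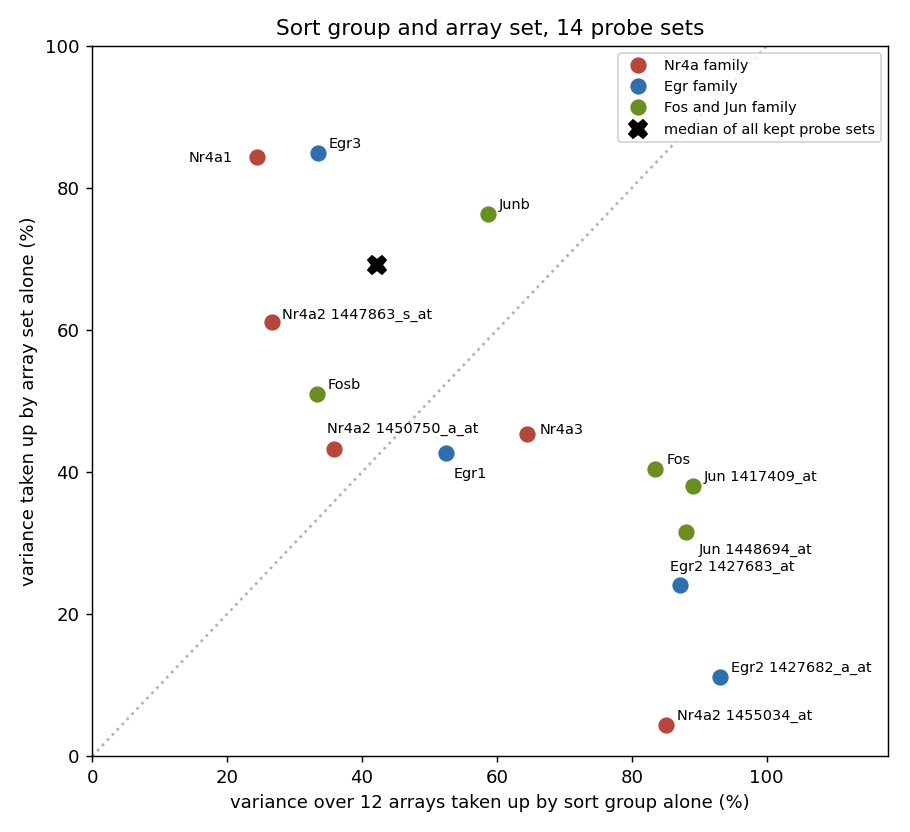
Percent of the variance over the 12 arrays taken up by sort group alone (x axis) and by array set alone (y axis), 1 point per probe set, coloured by gene family, with the median of all 17901 kept probe sets as a cross. Egr2, Fos, Jun and Nr4a2 1455034_at lie at the right with at least 83.5% for sort group, while Nr4a1 and Egr3 lie at the top with 84.4% and 84.9% for array set.

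Egr2 was the member that most clearly ran along the sort groups. It encodes a zinc finger factor induced downstream of NFAT in T cells. Its probe set 1427682_a_at read 13.36, 13.51 and 13.79 in Venus-high Tfh, 13.12, 12.98 and 13.53 in Venus-low Tfh, 12.80 and 12.58 in PD1-intermediate Th, 11.60 and 12.11 in PD1-low Th, and 9.93 and 11.03 in naive cells (log2 signal per array, here and below). The 2 Tfh groups overlapped, and below them each group lay wholly under the one before it. Sort group took up 93.1% of its variance (F test adjusted p = 0.000978), and array set 11.1% (adjusted p = 0.102). The other probe set, 1427683_at, read 12.15, 12.75 and 13.12 in Venus-high Tfh, 11.84, 12.02 and 13.11 in Venus-low Tfh, 12.23 and 11.88 in PD1-intermediate Th, 10.19 and 11.40 in PD1-low Th, and 8.97 and 9.70 in naive cells. It gave the same order of group means, with PD1-intermediate Th overlapping both Tfh groups. For this probe set the array set test passed too (adjusted p = 0.00296), beside 0.000397 for sort group, and set 3 held the highest array of both Tfh groups and of PD1-low Th.

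Egr1 and Egr3 moved much less. Egr1, a broadly induced factor of the same family, spanned only 13.04 to 13.84 over all 12 arrays, reading 13.31, 13.70 and 13.82 in Venus-high Tfh, 13.31, 13.55 and 13.84 in Venus-low Tfh, 13.57 and 13.40 in PD1-intermediate Th, 13.31 and 13.42 in PD1-low Th, and 13.04 and 13.22 in naive cells. Naive cells were the lowest, and the other 4 groups overlapped. Both of its F tests passed, with adjusted p = 0.0488 for sort group and 0.0123 for array set. Egr3 1436329_at followed array set most. It read 9.47 to 10.04 in set 1, 10.32 to 10.75 in set 2 and 10.86 to 11.47 in set 3, and these ranges did not overlap. The array set test of Egr3 had adjusted p = 0.000051 and its sort group test 0.0165, with naive cells lowest in both sets that held them.

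Fos and Jun, which together make the classical AP-1 dimer, had another order of groups. Fos read 10.95, 12.48 and 12.63 in Venus-high Tfh, 10.27, 12.25 and 12.18 in Venus-low Tfh, 12.59 and 11.78 in PD1-intermediate Th, 12.97 and 13.13 in PD1-low Th, and 8.77 and 8.41 in naive cells. PD1-low cells were above every other array and naive cells below every other array, with the 3 middle groups overlapping. Jun 1417409_at read 7.58, 9.67 and 9.41 in Venus-high Tfh, 7.90, 9.32 and 8.99 in Venus-low Tfh, 10.26 and 9.62 in PD1-intermediate Th, 11.59 and 11.03 in PD1-low Th, and 5.89 and 5.68 in naive cells. Again the PD1-low arrays were the highest and the naive arrays the lowest, and the PD1-intermediate arrays overlapped Venus-high Tfh. The second Jun probe set, 1448694_at, kept this order with 9.51, 10.66 and 10.46 in Venus-high Tfh, 9.61, 10.53 and 10.35 in Venus-low Tfh, 11.46 and 10.67 in PD1-intermediate Th, 12.16 and 11.99 in PD1-low Th, and 8.92 and 8.06 in naive cells. Sort group took up 83.5% of the variance of Fos, 89.1% of Jun 1417409_at and 88.0% of Jun 1448694_at, all 3 with a passing sort group test (adjusted p = 0.0108, 0.00446 and 0.0192) and none with a passing array set test (0.0566, 0.0719 and 0.5).

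Junb, an AP-1 partner that can oppose Jun, followed both terms. In set 1 its value was 5.87 on all 3 arrays, identical to the last digit deposited. Such a tie on all arrays of the set occurred in 3.63% of kept probe sets in set 1, against 0.0168% in set 2 and 0.0223% in set 3, so no difference of Junb between groups can be read from set 1, and the cause of the ties was not tested. In set 2 Junb read 8.16 in Venus-high Tfh, 7.49 in Venus-low Tfh, 9.71 in PD1-low Th and 7.19 in naive cells. In set 3 it read 8.36 in Venus-high Tfh, 8.10 in Venus-low Tfh, 8.53 and 8.38 in PD1-intermediate Th and 9.10 in PD1-low Th. PD1-low Th was thus the highest group in both sets that held it, as for Fos and Jun, and the sort group test passed (adjusted p = 0.0284) beside a stronger array set test (0.000878). Fosb, a Fos relative that peaks sharply after stimulation, reached log2 5 only in set 2, where it read 5.19 in Venus-high Tfh, 7.51 in Venus-low Tfh, 6.33 in PD1-low Th and 2.13 in naive cells. On the 8 arrays of sets 1 and 3 it lay between 2.01 and 3.29, and its F tests gave adjusted p = 0.127 for sort group and 0.0103 for array set.

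The Nr4a receptors split 3 ways. Nr4a1, which encodes Nur77, read 6.53 in Venus-high Tfh, 6.74 in Venus-low Tfh and 6.54 in naive cells in set 1, and at least 8.21 on each of the other 9 arrays. Its means were 6.60 in set 1, 8.99 in set 2 and 9.01 in set 3. The array set test had adjusted p = 0.000127, while the sort group test did not pass (0.0548). Nr4a1 levels across the 12 arrays thus separated set 1 from the rest, and not Tfh from naive cells.

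Nr4a3, which encodes Nor1, combined both patterns. It read 11.59, 11.89 and 12.52 in Venus-high Tfh, 11.36, 11.69 and 12.68 in Venus-low Tfh, 11.85 and 11.44 in PD1-intermediate Th, 11.31 and 12.37 in PD1-low Th, and 10.45 and 10.38 in naive cells. Naive cells lay below all other arrays, and the other 4 groups overlapped. Its adjusted p was 0.00448 for sort group and 0.00153 for array set.

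The 3 kept probe sets of Nr4a2, which encodes Nurr1, disagreed. Probe set 1455034_at read 6.88, 6.95 and 6.75 in Venus-high Tfh, 6.88, 7.04 and 8.65 in Venus-low Tfh, 4.73 and 4.18 in PD1-intermediate Th, 6.47 and 5.90 in PD1-low Th, and 5.52 and 5.82 in naive cells. Here the Tfh groups were highest and PD1-intermediate Th lowest, with sort group taking up 85.1% of the variance (adjusted p = 0.0141) and array set 4.4% (0.491). Probe set 1447863_s_at lay at 2.41 on all 4 arrays of set 2 and at 6.22 to 6.61 on the 3 arrays of set 1, a downward displacement of set 2 by more than 3 log2 units. Set 2 was displaced in 1696 kept probe sets, downward in 838 and upward in 858. Probe set 1450750_a_at lay at 2.44 to 2.45 throughout set 1 and reached log2 5 on 3 Tfh arrays only, with 5.87 in Venus-high Tfh and 6.56 in Venus-low Tfh of set 2 and 5.64 in Venus-low Tfh of set 3. For both of these the array set test passed (adjusted p = 0.00383 and 0.0282) and the sort group test did not (0.123 and 0.178). Statements on Nr4a2 below hold for 1 probe set at a time.

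**Figure D2:**
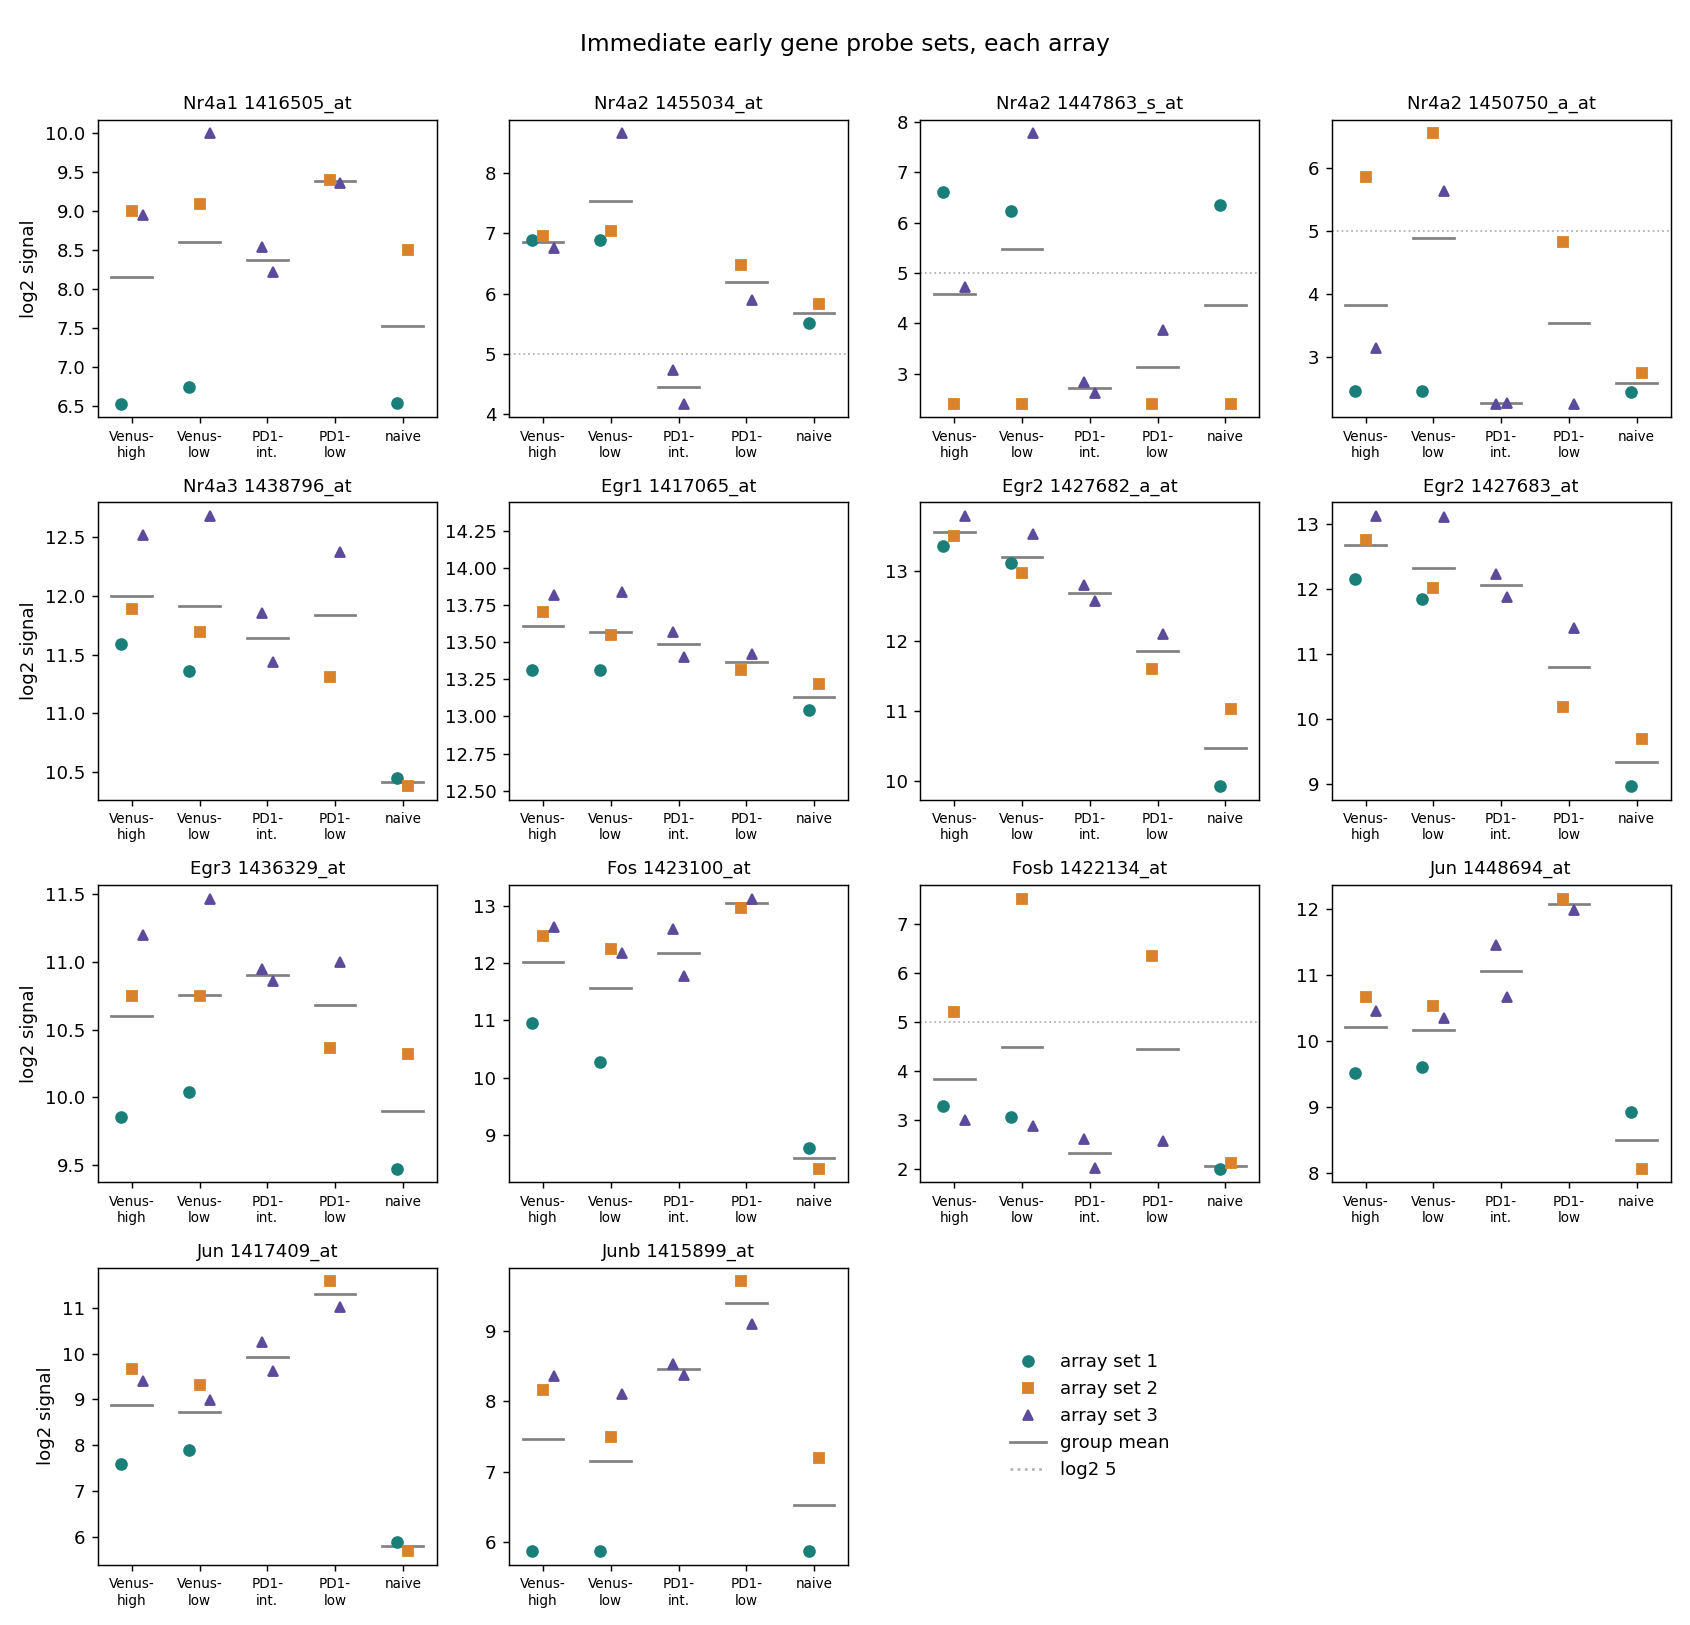
Log2 signal (y axis) of the 14 kept probe sets on each of the 12 arrays by sort group (x axis), with the group mean as a line, the array set as colour and symbol, and log2 5 dotted where it falls in range. Egr2 steps down from Venus-high Tfh to naive cells, Fos, Jun and Junb peak in PD1-low Th, and Nr4a1 and Junb show the 3 arrays of set 1 below all the others.

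The promoter sequences of members that moved in different ways are shown with the sites found for CREB and SRF, factors known to act on this gene class. From RefSeq's promoter table (GRCm38.p6), 12 windows for 8 of the 10 members were used. Egr1 was left out of the search and the table held no Egr3 entry, so nothing is said here on either promoter. The 250 bases before each start were searched on both strands for the CArG box bound by SRF, the full CRE (TGACGTCA), the short CRE motif (TGACG, chosen after the windows were seen, which lies within every full CRE), AP-1 (TGANTCA), EGR (GCGNGGGCG) and NBRE (AAAGGTCA) motifs. Egr2, whose level ran along the sort groups, had 5 annotated starts, 4 of them with a CArG box, a motif present in 1.47% of all 32851 windows. For 3 of these 4 the windows overlap and hold the same CArG box, so they do not count as separate sites. The 30 bases shown for Egr2 (chr10:67537790-67537819, plus strand) hold a CArG box and a short CRE motif on the minus strand, both in capitals. Nr4a2, Fos and Junb are shown as the whole 250 bases (chr2:57124004-57124253, minus strand; chr12:85473640-85473889, plus strand; chr8:84978749-84978998, minus strand), with short CRE motifs in capitals and, in Nr4a2, 1 EGR motif in capitals as well.
Egr2: cctcagtCCATATATGGgcagcgaCGTCAc
Nr4a2: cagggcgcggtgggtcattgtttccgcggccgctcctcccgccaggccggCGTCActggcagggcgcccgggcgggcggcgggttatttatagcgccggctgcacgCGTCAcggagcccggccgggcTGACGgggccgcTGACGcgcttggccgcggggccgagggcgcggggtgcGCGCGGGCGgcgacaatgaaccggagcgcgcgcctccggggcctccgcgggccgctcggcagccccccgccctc
Fos: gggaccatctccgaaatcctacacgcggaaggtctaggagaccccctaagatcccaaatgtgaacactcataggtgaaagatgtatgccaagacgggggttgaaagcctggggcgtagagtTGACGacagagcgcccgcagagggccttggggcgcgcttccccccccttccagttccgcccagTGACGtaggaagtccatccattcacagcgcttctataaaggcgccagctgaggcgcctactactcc
Junb: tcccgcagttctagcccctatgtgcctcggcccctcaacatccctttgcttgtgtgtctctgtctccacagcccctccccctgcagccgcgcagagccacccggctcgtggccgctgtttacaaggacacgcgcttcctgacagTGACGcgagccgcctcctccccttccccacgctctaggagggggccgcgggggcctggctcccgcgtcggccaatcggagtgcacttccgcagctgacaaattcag
The Nr4a1, Nr4a2 and Nr4a3 windows each held 4 short CRE motifs, a number reached by 0.137% of all windows, while at least 1 was present in 17.8%. Fos held 2, Junb and Fosb 1 each, and Jun none of the 6 motifs. The EGR motif, present in 4.7% of windows, occurred once each in Nr4a1, Nr4a2 and Fosb. The full CRE, AP-1 and NBRE motifs, present in 1.55%, 6.75% and 1.34% of windows, occurred in none of the 12 member windows searched. Bases beyond the 250 were not searched, so a motif absent from a window can still lie further from the start. The shared short CRE motifs of the 3 Nr4a windows stood beside 3 different patterns over the arrays, and a motif match is a description of these letters only.

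Against naive cells, Egr2, Fos and Jun rose in both Tfh groups. In Venus-high Tfh, Egr2 was higher by 3.07 ± 0.37 (log2 difference ± SE of the limma fit of sort group alone, 8.42-fold, adjusted p = 0.000983) at 1427682_a_at and by 3.34 ± 0.53 (adjusted p = 0.00437) at 1427683_at. Fos was higher by 3.43 ± 0.70 (10.8-fold, adjusted p = 0.0159), and Jun 1417409_at by 3.10 ± 0.66 (8.56-fold, adjusted p = 0.0194). These 4 of 14 probe sets passed, all higher, against 9.52% of all kept probe sets in either direction (6.59% higher and 2.93% lower). Adding array set, Nr4a3 at 1.25 ± 0.18 (adjusted p = 0.00216), Egr1 at 0.38 ± 0.11 (0.0381), Egr3 at 0.37 ± 0.11 (0.0333) and Jun 1448694_at at 1.64 ± 0.46 (0.0308) passed too, which made 8 of 14 against 34.3% of all kept probe sets (16.3% higher and 18% lower). In that fit Nr4a1 differed by 0.13 ± 0.27 (adjusted p = 0.735). The median difference over all kept probe sets was 0.18 in the fit of sort group alone and -0.03 with array set for Venus-high Tfh against naive cells. For the other comparisons with naive cells it was 0.18 and -0.04 in Venus-low Tfh, 0.63 and -0.03 in PD1-intermediate Th, and 0.33 and -0.02 in PD1-low Th, so small differences in the first fit are read against those shifts.

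The size of these differences varied between array sets. Jun 1417409_at was 1.68 higher in Venus-high Tfh than in naive cells within set 1 and 3.99 higher within set 2, and Fos was 2.19 and 4.07 higher. For Egr2 the same within-set differences were 3.18 and 3.05 at 1427683_at and 3.43 and 2.48 at 1427682_a_at. Each within-set value compares 1 array with 1 array and has no test. Under the fit with array set, the calls of both Egr2 probe sets, Fos, Jun 1417409_at and Nr4a3 held without any 1 of the 12 arrays and without set 1. The Egr1 call was lost without any 1 array other than Venus-low 2 (adjusted p up to 0.149), and the Egr3 call without any 1 array other than Venus-high 3 or Venus-low 2 (up to 0.101). That of Jun 1448694_at was lost without Venus-high 2, Venus-high 3, Venus-low 3, either PD1-low array or naive 2 (up to 0.171). In the fit of sort group alone, the Fos and Jun calls were lost without Venus-high 2, Venus-high 3 or either naive array, with adjusted p up to 0.111 for Fos and 0.121 for Jun, while both Egr2 calls held.

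Venus-low Tfh gave close values against the same 2 naive arrays. Egr2 1427682_a_at was higher by 2.73 ± 0.37 (adjusted p = 0.00201), 1427683_at by 2.99 ± 0.53 (0.00831), Fos by 2.98 ± 0.70 (0.0321) and Jun 1417409_at by 2.95 ± 0.66 (0.0258) in the limma fit of sort group alone. These 4 of 14 stand against 9.2% of all kept probe sets (6.64% higher and 2.55% lower). In the fit with array set 9 of 14 passed, all higher, against 34.5% (16.9% higher and 17.7% lower). They were those 4, Nr4a3 at 1.16 ± 0.18 (adjusted p = 0.00316), Egr3 at 0.53 ± 0.11 (0.00881), Jun 1448694_at at 1.59 ± 0.46 (0.034), Nr4a2 1455034_at at 1.70 ± 0.50 (0.0357) and Fosb (0.0297). No size is given for Fosb, since both naive arrays and 2 of the 3 Venus-low arrays lay under log2 5. Its call was lost without Venus-low 2, Venus-low 3, naive 2 or any PD1-intermediate or PD1-low array (adjusted p up to 0.217). Calls were also lost for Jun 1448694_at without any Venus-low or PD1-low array, Venus-high 3 or naive 2 (adjusted p up to 0.201), and for Nr4a2 1455034_at without any Venus-high, PD1-intermediate or naive array or Venus-low 1 (up to 0.131). The Egr3 call held without any 1 array and was lost without set 1 (adjusted p = 0.062). In the fit of sort group alone, Egr2 1427683_at was lost without naive 1 (adjusted p = 0.0824), Fos and Jun without Venus-low 2, Venus-low 3 or either naive array, and Fos without any PD1-intermediate or PD1-low array too (up to 0.182 for Fos and 0.149 for Jun).

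PD1-intermediate Th also had more Egr2, Fos and Jun than naive cells. Egr2 was higher by 2.21 ± 0.40 (adjusted p = 0.015) at 1427682_a_at and 2.72 ± 0.58 (0.0306) at 1427683_at, Fos by 3.59 ± 0.77 (0.0314), and Jun by 4.15 ± 0.72 (0.0126) at 1417409_at and 2.58 ± 0.52 (0.0236) at 1448694_at, in the limma fit of sort group alone. These 5 of 14 stand against 5.45% of all kept probe sets (4.61% higher and 0.844% lower). In the fit with array set 4 of 14 passed, against 12% (6.95% higher and 5.09% lower), with Jun 1448694_at missing at adjusted p = 0.0515. The 2 groups shared no array set, so the second fit links them through the other groups, and each of these calls was lost in the first fit when either PD1-intermediate array was left out (adjusted p up to 0.143, 0.236, 0.253, 0.128 and 0.225 over all single arrays, in the order given). All 5 were lost without naive 1 as well, all but Egr2 1427682_a_at without naive 2, Egr2 1427683_at also without Venus-high 2 or Venus-low 2, and Fos also without either PD1-low array. In the second fit all 4 calls were lost without PD1-intermediate 1 (adjusted p = 0.116, 0.0846, 0.177 and 0.0749 for Egr2 1427682_a_at, Egr2 1427683_at, Fos and Jun 1417409_at). There Egr2 1427682_a_at was also lost without Venus-high 1, Venus-high 3, Venus-low 3 or PD1-intermediate 2, Egr2 1427683_at without set 1 (adjusted p = 0.0818), and Fos without any 1 array other than Venus-low 1 or the naive arrays.

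PD1-low Th had the highest Jun and Fos of all groups, but few probe sets of any kind passed against naive cells. Jun 1417409_at averaged 11.31 ± 0.40 in PD1-low Th and 5.79 ± 0.15 in naive cells (SD, n = 2 each), a difference of 5.52 ± 0.72 (SE, 45.9-fold) with limma adjusted p = 0.0717. Of 14 members 0 passed in the fit of sort group alone, against 0.0335% of all kept probe sets (0.0223% higher and 0.0112% lower). An unadjusted p under 0.05 was reached there by 7 of 14, against 703 of all 17901 kept probe sets. Once array set was included, the Jun difference was 5.01 ± 0.57 (32.3-fold) and passed (adjusted p = 0.03), 1 of 14 against 0.369% of all kept probe sets (0.251% higher and 0.117% lower), which were 66 in number. Fos, at 3.77 ± 0.58 (adjusted p = 0.0692), and Jun 1448694_at, at 3.35 ± 0.53 (0.0714), did not pass in that fit. The Jun call was lost when any 1 Venus-low, PD1-intermediate or PD1-low array or Venus-high 2 or 3 was left out (adjusted p up to 0.0956). All 4 comparisons with naive cells share the same 2 naive arrays, and their results are not independent of each other.

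**Figure D3:**
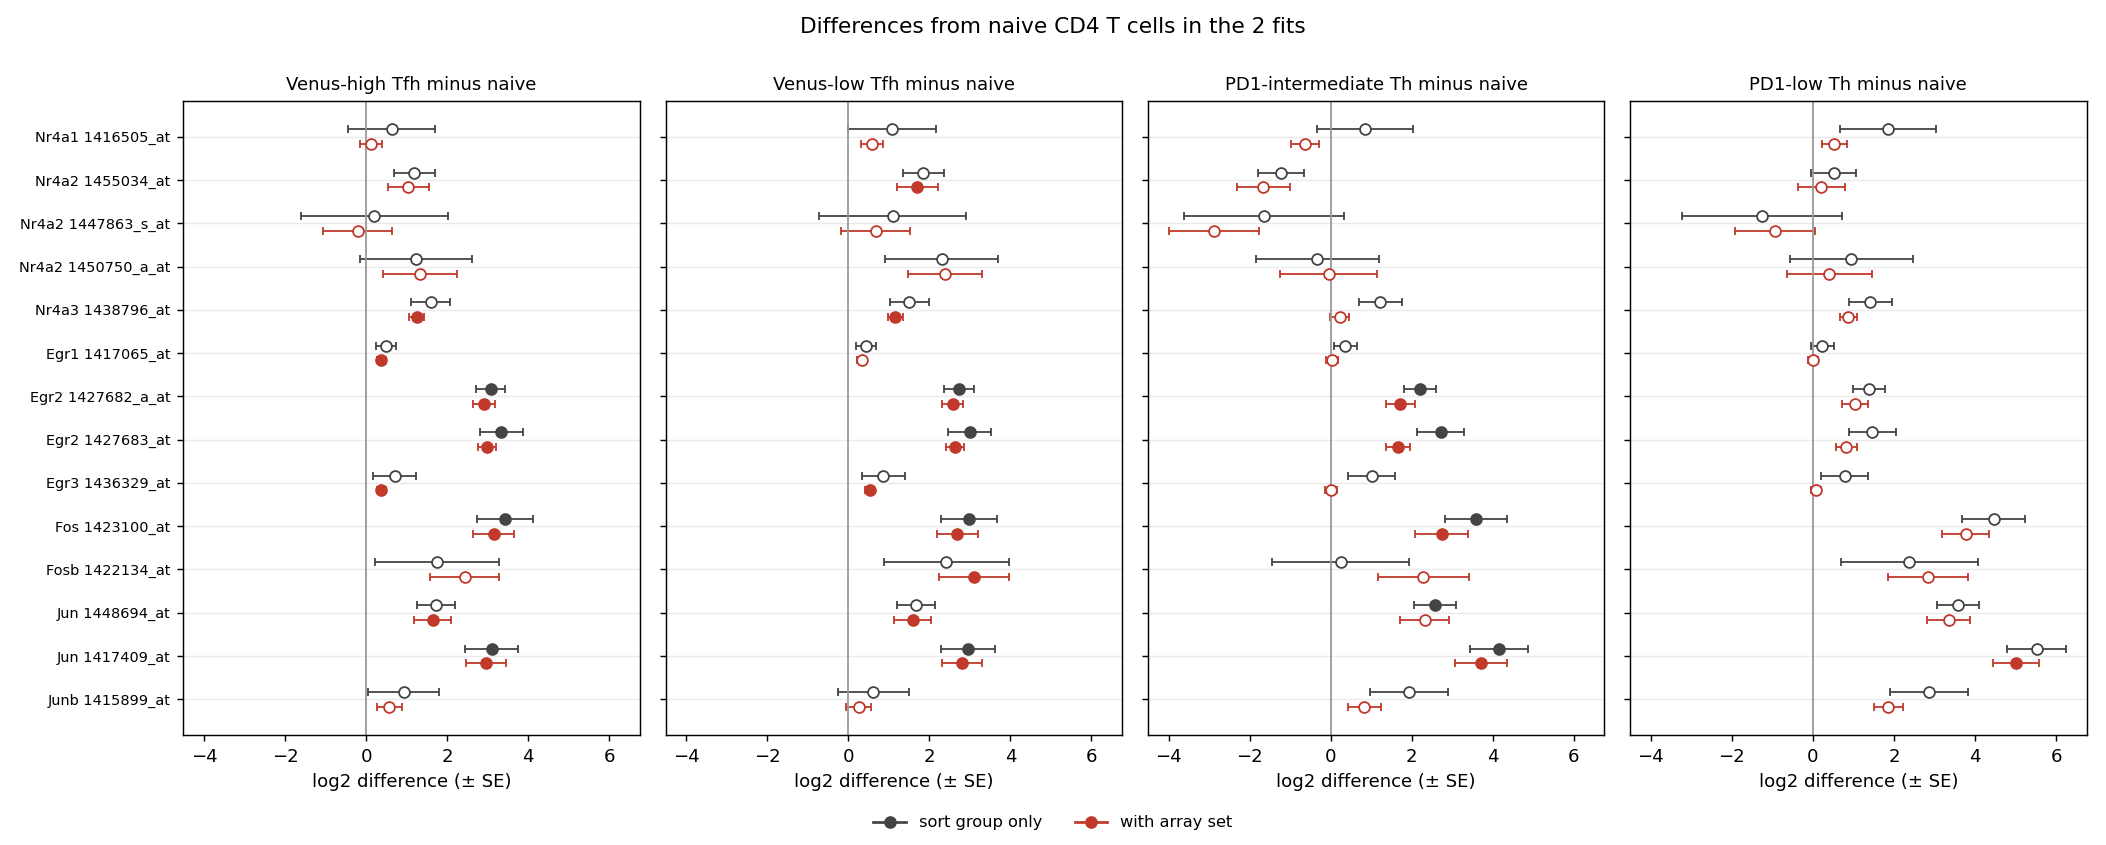
Log2 difference from naive CD4 T cells (x axis) ± SE for the 14 probe sets in each of the other 4 groups, from the fit of sort group alone (grey) and with array set as a term (red), where filled points have an adjusted p under 0.05. Fosb and Nr4a2 1450750_a_at lay under log2 5 on both naive arrays, so their points are not measured sizes. Egr2 differences shrink from the Venus-high panel to the PD1-low panel, while those of Jun 1417409_at run from 3.10 in Venus-high Tfh to 5.52 in PD1-low Th.

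Among the antigen-experienced groups, Egr2 and Jun differed in opposite directions, while Fos did not pass against PD1-low Th in either fit (adjusted p = 0.595 and 0.403 in Venus-high Tfh, 0.337 and 0.15 in Venus-low Tfh, without and with array set). Venus-high and Venus-low Tfh were each set against PD1-low Th, a pair of comparisons added after the data were seen. In Venus-high Tfh, Egr2 1427682_a_at was higher than in PD1-low Th by 1.70 ± 0.37 (3.25-fold, limma adjusted p = 0.0248) and Jun 1448694_at differed by -1.86 ± 0.47 (0.275 of the PD1-low level, adjusted p = 0.0497), 1 member in each direction against 7.62% of all kept probe sets (4.25% higher and 3.37% lower). Once array set was included, 3 were higher and 3 lower, against 28.7% of all kept probe sets (15% higher and 13.7% lower). Higher were Egr2 1427682_a_at at 1.87 ± 0.26 (adjusted p = 0.00231), Egr2 1427683_at at 2.17 ± 0.23 (0.000631) and Egr1 at 0.38 ± 0.11 (0.043). Lower were Jun 1417409_at at -2.06 ± 0.49 (0.0196), Jun 1448694_at at -1.71 ± 0.46 (0.0304) and Junb at -1.29 ± 0.31 (0.0214).

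The opposite directions of Egr2 and Jun were present within both sets that held these groups. In set 2 Venus-high Tfh differed from PD1-low Th by 2.56 for Egr2 1427683_at and by -1.92 for Jun 1417409_at, and in set 3 by 1.72 and -1.62. Both Egr2 calls with array set held without any 1 array. Calls of Jun 1417409_at and Junb were lost without PD1-low 1, that of Jun also without PD1-low 2 and that of Junb also without Venus-high 2 (adjusted p up to 0.159 and 0.182). The Egr1 call was lost without any Venus-high, Venus-low, PD1-intermediate or PD1-low array (up to 0.214), and that of Jun 1448694_at without any Venus-high or PD1-low array or Venus-low 3 (up to 0.186). In the fit of sort group alone the Egr2 call was lost without Venus-high 2, Venus-high 3 or any PD1-intermediate or PD1-low array (up to 0.193), and that of Jun 1448694_at without any 1 array other than Venus-low 1 (up to 0.247).

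Venus-low Tfh against the same PD1-low arrays gave 1 call in the limma fit of sort group alone, Jun 1448694_at at -1.91 ± 0.47 (adjusted p = 0.0481), against 6.85% of all kept probe sets (4.13% higher and 2.73% lower). With array set, 3 were higher and 3 lower, against 30.8% (16% higher and 14.8% lower). Higher were Egr2 1427682_a_at at 1.52 ± 0.26 (0.00566), Egr2 1427683_at at 1.82 ± 0.23 (0.0015) and Egr3 at 0.44 ± 0.11 (0.0198). Lower were Jun 1417409_at at -2.21 ± 0.49 (0.0148), Jun 1448694_at at -1.76 ± 0.46 (0.0263) and Junb at -1.60 ± 0.31 (0.00912). Leaving out PD1-low 1 ended all of these calls but that of Egr2 1427683_at (adjusted p up to 0.0602 for Egr2 1427682_a_at, 0.13 for Egr3, 0.125 and 0.165 for Jun and 0.0727 for Junb). Jun 1417409_at and Egr3 were also lost without Venus-low 3 or PD1-low 2, and Jun 1448694_at without PD1-low 2 or any Venus-low array. In the fit of sort group alone the Jun 1448694_at call was lost without any 1 array other than Venus-high 1 (adjusted p up to 0.241).

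PD1-low Th and the other groups also differed in genes of other lymphocytes. The summed signal of the 5 CD8 and NK markers was 7.28 to 7.85 in Venus-high Tfh, 8.25 to 9.82 in Venus-low Tfh, 9.04 to 9.42 in PD1-intermediate Th, 10.89 to 11.57 in PD1-low Th and 9.50 to 9.82 in naive cells (log2). Klrd1, an NK receptor chain also found on some T cells, averaged 2.25 in Venus-high Tfh, 4.86 in Venus-low Tfh and 8.25 in PD1-intermediate Th. It averaged 11.15 in PD1-low Th and 9.59 in naive cells, so it was not particular to PD1-low Th. Cd8b1 averaged 2.89, 3.52, 4.69, 6.49 and 4.12 in these 5 groups in the same order. Gzma, a granule protease gene of the same list, went the other way, with 7.45 in Venus-high Tfh, 8.76 in Venus-low Tfh and 4.94 in PD1-low Th, and was called higher in both Tfh groups in both fits. The defining Cd8a and Ncr1 stayed at or below 2.80 and 2.18 on every array. The summed B cell markers were highest in the Tfh groups, at 12.17 to 13.02 in Venus-high Tfh, 10.73 to 12.29 in Venus-low Tfh, 9.59 to 10.28 in PD1-intermediate Th, 7.16 to 9.10 in PD1-low Th and 5.19 to 6.45 in naive cells. That sum came mainly from Cd22, with means of 12.51 in Venus-high Tfh and 2.78 in naive cells, and Cd79b ran against it, with means of 3.20 in Venus-high Tfh, 5.05 in Venus-low Tfh, 6.67 in PD1-intermediate Th and 7.41 in PD1-low Th (adjusted p = 0.0155 for Venus-high Tfh against PD1-low Th with array set). The defining Cd79a and Ms4a1 stayed at or below 2.55 and 3.44 on every array. In pooled sorted cells, fewer cells carrying a transcript and less of it per cell cannot be told apart.

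**Figure D4:**
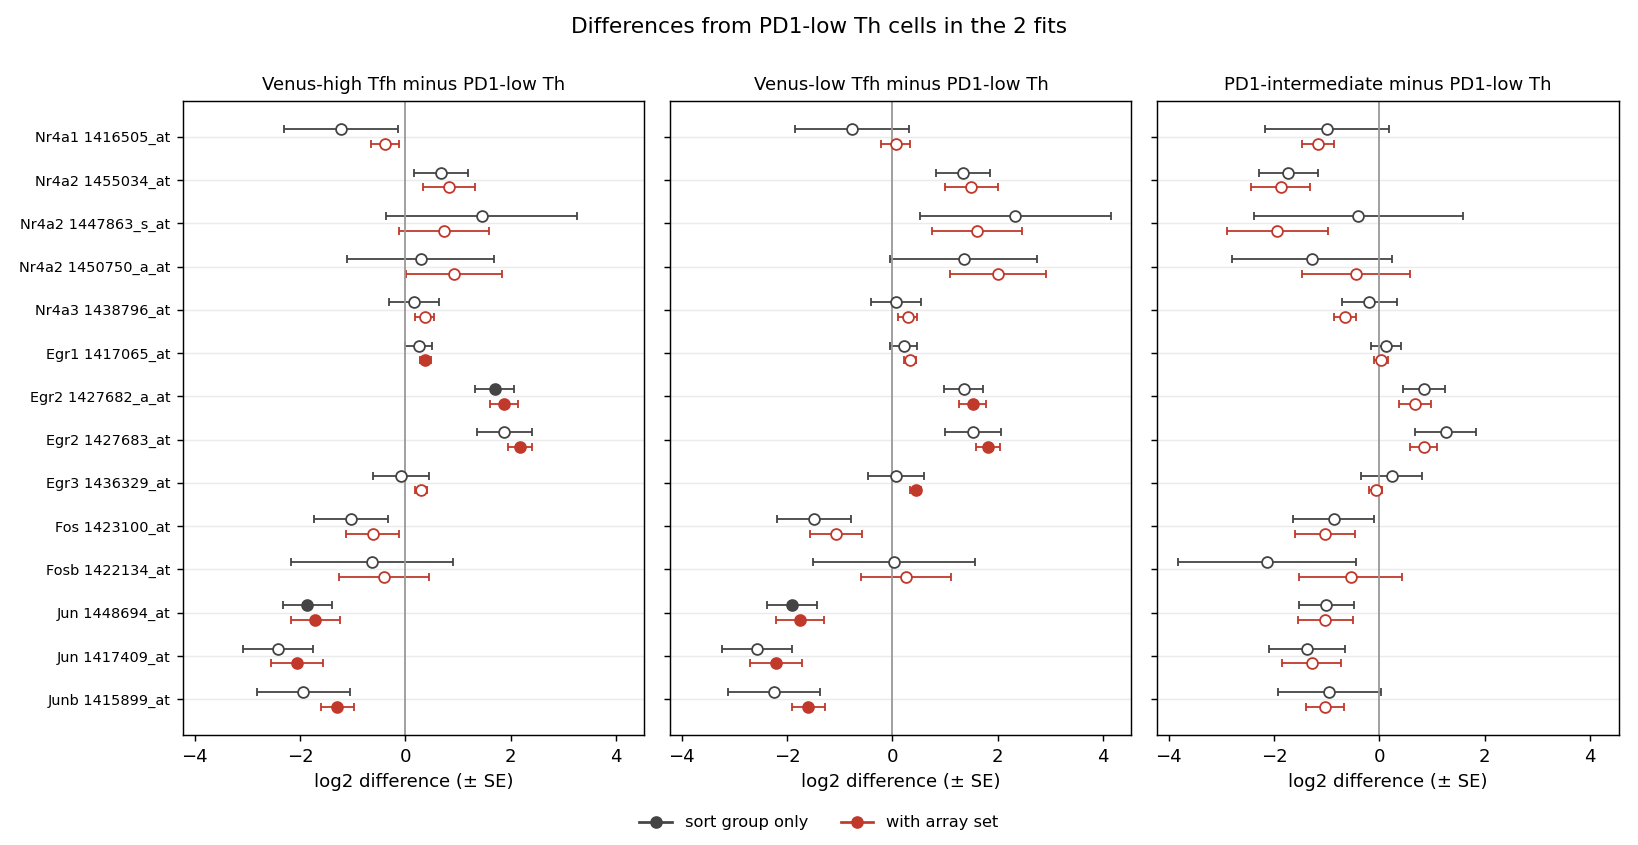
Log2 difference from PD1-low Th (x axis) ± SE for the 14 probe sets in Venus-high Tfh, Venus-low Tfh and PD1-intermediate Th, from the fit of sort group alone (grey) and with array set as a term (red), where filled points have an adjusted p under 0.05. Egr2 lies to the right of 0 and Jun, Fos and Junb to the left in all 3 panels.

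Few members passed between neighbouring gates. Between Venus-high and Venus-low Tfh, 0 of 14 passed in limma without or with array set. Of all kept probe sets, 0.609% (0.212% higher and 0.397% lower) were called without it and 11.6% (4.84% higher and 6.78% lower) with it. An unadjusted p under 0.05 was reached by 0 of 14 in either fit, against 1328 and 4998 of all 17901 kept probe sets. With array set, the Egr2 difference was 0.35 ± 0.23 at Egr2 1427682_a_at and 0.35 ± 0.19 at Egr2 1427683_at (adjusted p = 0.379 and 0.297), Venus-high being the higher in all 3 sets at both. S1pr2 itself, the gene of the reporter, averaged 12.89 in Venus-high Tfh and 10.25 in Venus-low Tfh, the order the gates imply. Between PD1-intermediate and PD1-low Th, 0 of 14 passed in either fit, against 2.49% (1.87% higher and 0.62% lower) and 9.07% (5.65% higher and 3.41% lower) of all kept probe sets called. At an unadjusted p under 0.05 there were 1 and 5 of 14, against 1724 and 4017 of all 17901 kept probe sets.

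In Venus-low Tfh against PD1-intermediate Th, Nr4a2 1455034_at passed in 1 of the 2 fits, with a mean of 7.52 ± 0.98 in Venus-low Tfh (SD, n = 3) and 4.45 ± 0.39 in PD1-intermediate Th (SD, n = 2). The difference was 3.07 ± 0.51 without array set (limma adjusted p = 0.0634, 0 of 14 passing against 0.268% of all kept probe sets, 0.162% higher and 0.106% lower). An unadjusted p under 0.05 was reached there by 1 of 14, against 1487 of all 17901 kept probe sets. With array set the difference was 3.37 ± 0.55 and passed (adjusted p = 0.033, 1 of 14 against 3.05%, 1.98% higher and 1.07% lower). In that fit 9 of 14 had an unadjusted p under 0.05, against 3618 of all 17901 kept probe sets. Of the 14, 10 were higher in Venus-low Tfh, with a median difference of 0.82 beside -0.01 over all kept probe sets. As both PD1-intermediate arrays lay under log2 5, the level in Venus-low Tfh was at least 5.76-fold higher. The call with array set was lost without Venus-high 1, Venus-high 3, Venus-low 1, Venus-low 3 or either PD1-intermediate array (adjusted p up to 0.218). The other 2 kept Nr4a2 probe sets gave adjusted p = 0.091 and 0.237 in that fit, with differences of the same sign. At each of them both PD1-intermediate arrays and 1 Venus-low array lay under log2 5, and 1447863_s_at was displaced in set 2. Their shared sign thus rests in part on values under log2 5.

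Other genes of the response, taken as lists, moved in part with the members. Each list gene was counted by its kept probe set with the highest mean, while the shares given are over all kept probe sets. With 1 such probe set per gene and no array set, 13.7% of 9893 passed in Venus-high Tfh against naive cells. The same setting gave 11.3% in Venus-high Tfh against PD1-low Th and 0.0809% in PD1-low Th against naive cells. Of 25 other immediate early genes 21 were measured. In Venus-high Tfh against naive cells 4 were higher and 0 lower in the limma fit of sort group alone, and 7 higher and 5 lower with array set, where the median difference of the list was 0.06 beside -0.03 over all kept probe sets. Of all kept probe sets 6.59% were higher and 2.93% lower in the first fit, and 16.3% higher and 18% lower in the second. Gadd45b, a stress and growth arrest factor, rose by 4.49 ± 0.20 with array set (adjusted p = 2.04e-05), and Dusp1, a phosphatase that switches off MAP kinases, by 2.20 ± 0.40 without it (0.00942). With array set, Klf6, Ier2, Dusp2, Zfp36 and Cd69 were lower in Venus-high Tfh, Klf6 with a difference of -2.60 ± 0.23 (adjusted p = 0.000257). Against PD1-low Th, 0 were higher and 2 lower without array set and 2 higher and 8 lower with it. Of all kept probe sets 4.25% were higher and 3.37% lower without it, and 15% higher and 13.7% lower with it. Ier2 averaged 6.99 in Venus-high Tfh and 9.82 in PD1-low Th, a difference of -2.83 ± 0.53 without array set (adjusted p = 0.0132), and Gadd45b was higher by 2.65 ± 0.20 with it (adjusted p = 0.000167). As among the members, this list held genes that were highest in Tfh cells and genes that were highest in PD1-low Th. In PD1-low Th against naive cells 0 passed without array set and 4 rose with it, which were Rgs1, Ppp1r15a, Sik1 and Gadd45b. Of all kept probe sets 0.0335% and 0.369% passed in these 2 fits.

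Of 12 other AP-1 and Egr family genes 6 were measured, and 3 of them, Maf, Mafg and Batf, were higher in Venus-high Tfh than in naive cells in both fits. Of all kept probe sets 6.59% were higher without array set and 16.3% with it. Maf, a factor that drives IL-21 and the Tfh programme, rose by 6.23 ± 0.58 (limma adjusted p = 0.000255) and Batf, an AP-1 partner of IRF4, by 3.15 ± 0.48 (0.00343), in the fit of sort group alone. Against PD1-low Th the same 3 were higher in both fits, with Mafk lower as well once array set was included. There 7.62% of all kept probe sets passed without array set and 28.7% with it, in either direction. Jund passed the array set test alone (adjusted p = 5.46e-10, against 0.308 for sort group), and Egr4, Fosl1 and Atf3 never reached log2 5.

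Downstream and upstream genes were counted in the same way for Venus-high Tfh against naive cells. In this comparison 9.52% of all kept probe sets passed without array set (6.59% higher and 2.93% lower). With 1 probe set per gene, as the lists are counted, 13.7% of 9893 passed without array set. With array set 34.3% passed (16.3% higher and 18% lower). Of 17 measured genes of the later TCR response, 8 were higher and 0 lower without array set, and 11 higher and 1 lower with it. Bhlhe40, a repressor of IL-10 in T cells, lay under log2 5 on both naive arrays and was at least 46.5-fold higher in Venus-high Tfh (limma adjusted p = 0.000639 in the first fit). Irf4, a dose-dependent TCR target, rose by 3.59 ± 0.53 in that fit (adjusted p = 0.00317). Of 10 calcium and NFAT genes, 3 were higher and 1 lower without array set, and 5 higher and 1 lower with it. Nfatc1 rose by 2.59 ± 0.32 (adjusted p = 0.00122) and Ppp3ca, a calcineurin catalytic subunit, differed by -3.24 ± 0.45 (0.0022). Of 13 Egr corepressors and TCR brakes, 3 were higher without array set and 5 higher and 2 lower with it. Rnf128, the ubiquitin ligase GRAIL and an Egr target in anergic T cells, was under log2 5 on both naive arrays and at least 68.4-fold higher in Venus-high Tfh (adjusted p = 0.000512).

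Genes acting earlier in the pathway were counted as well, and their counts stand against the same 9.52% and 34.3% of all kept probe sets. Of 14 proximal TCR signalling genes, 1 was higher (Fyn) and 1 lower (Grap2) in Venus-high Tfh than in naive cells without array set, with 2 higher and 3 lower with it. Of 8 measured SRF, TCF and CREB factors and their relatives, 1 was higher (Elk3), and with array set 1 was higher and 3 lower, Srf among them. Of 9 measured heat shock genes, which respond to handling, 0 passed without array set and 4 were lower with it, and their summed signal was 16.72 to 17.08 in Venus-high Tfh, 16.98 to 17.13 in PD1-low Th and 16.93 to 16.94 in naive cells. The brightest, Hspa8, lay at 15.53 to 15.68 on every array, so the sum says little about the dimmer genes. Hspa1b averaged 13.23, 13.97 and 12.57 in these 3 groups. Hspa1a averaged 5.19 and 7.27 in the first 2 and lay under log2 5 on both naive arrays. Neither passed the sort group F test (adjusted p = 0.501 and 0.413). Dnajb1 was highest in naive cells, at 12.90, 12.96 and 13.42. Whether handling had a part in any member's level was not tested.

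The genes most like each family over the 12 arrays differed with the treatment of array set. Over 9883 other genes, the mean of the Egr members correlated most with Gadd45b (Pearson r = 0.983), Tbcb (0.974) and Mmd (0.97), and after centring within array set with Sfmbt1 (0.991), Cd160 (0.986) and 6430562O15Rik (0.984). For Fos, Fosb, Jun and Junb they were Ppp1r15a (0.931), Rgs1 (0.861) and Cd2 (0.849), and after centring Eif3d (0.924), Klf4 (0.914) and Fem1c (0.911). For the Nr4a members they were Npepps (0.866), Cox6b2 (0.864) and Zc3h7b (0.841), and after centring Cd81 (0.909), Wls (0.876) and Mcph1 (0.868). No gene was among the 3 most alike both before and after centring in any family. These values are the highest of many over arrays that share sort groups and array sets, and are descriptions only.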

How the data were processed

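Each deposited value is the log2 signal of 1 probe set on 1 array, which the authors computed with GCRMA, a method that models background from the probes' base content, per the submitters' processing notes, from 20 ng of amplified RNA per array, per the labels. Which arrays were normalized together is not given in the sources used here, scanner files were not used here, and the number of arrays limits the precision.

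The probe annotation gave 34958 of 45101 probe sets 1 symbol, 932 several and 9211 none. Probe sets with 1 symbol that reached log2 5 on at least 2 arrays were kept (17901, for 9893 genes). All 12 arrays entered 1 fit of 5 sort groups in limma 3.58.1 (R 4.3.3), with 2-sided moderated tests and Benjamini-Hochberg adjustment over all kept probe sets, and adjusted p under 0.05 was the threshold. Array sets came from hierarchical clustering of the arrays' quantiles into 3 groups (a chosen number) and entered a second fit as a fixed term. F tests came from that fit. A probe set was displaced where a set's effect differed from both others by more than 3 log2 units. The fits were tested on simulated data.

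Nothing says that the pools were prepared on separate occasions, so p-values measure the spread between these samples. The same-numbered Tfh arrays deviated from their group means together (r = 0.937, 0.967 and 0.94) and lay in the same array set, so their numbers pair them. The 2 naive arrays deviated with the same-numbered Tfh arrays too (r = 0.786 to 0.915, same array set). The PD1-low arrays deviated against the same-numbered Tfh arrays (r = -0.531 to -0.915), which lay in other array sets. With the Tfh arrays of their own set they deviated together, PD1-low 1 with the second (r = 0.915 and 0.914) and PD1-low 2 with the third (0.828 and 0.853). In a group of 2 arrays the deviations are mirror images, so these signs are tied to each other. PD1-intermediate arrays deviated neither way. The members and all lists were chosen with earlier results of these data known. Every member probe set is reported. List examples are among the 3 smallest p-values per list and fit, other list genes are named as calls or, for markers, for their level, with their values known. Sequences are RefSeq's. Python 3.11.15 and matplotlib 3.10.9 drew the figures.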

Additional observations from a re-analysis of the deposited data

How the results depend on the processing

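The number of members passing depended on the setting far more than their direction, and no difference changed sign where it was called. With array set as a fixed term the counts were 8 for Venus-high Tfh and 9 for Venus-low Tfh against naive cells, 1 for PD1-low Th against naive cells, 6 for each Tfh group against PD1-low Th and 1 for Venus-low Tfh against PD1-intermediate Th; with array set as a random block they were 8, 10, 3, 6, 6 and 2 (against 34.1%, 34.6%, 0.844%, 29%, 31.4% and 5.85% of all kept probe sets), and 1 for PD1-intermediate against PD1-low Th (10.7%). The replicate block gave 4 for each Tfh group against PD1-low Th (20.4% and 18.1% of all kept probe sets), against 2 and 1 without it, and 1 for Venus-low Tfh against PD1-intermediate Th (21.8%). Replicate numbers do not follow array set in the PD1-low and PD1-intermediate groups, so here the block pairs arrays of different sets. Under it the median difference over all kept probe sets was -0.36, -0.37 and -0.65 in these 3 comparisons, so their counts are not read as results on the members. The replicate block changed no other count by over 1.5 times, but Jun 1417409_at in Venus-low Tfh against naive cells did not pass under it (adjusted p = 0.0509). Quantile normalization gave 1 for Venus-low Tfh against PD1-intermediate Th and for PD1-low Th against naive cells, and 4 for each Tfh group against PD1-low Th. With no filter the counts were 2 for Venus-low Tfh and 3 for PD1-intermediate Th against naive cells, and 1 and 0 for Venus-high and Venus-low Tfh against PD1-low Th. With 1 probe set per gene they were 1 for Venus-low Tfh against PD1-intermediate Th, 3 for PD1-intermediate Th against naive cells and 2 for Venus-low Tfh against PD1-low Th. Without displaced probe sets they were 1, 1 and 2 for Venus-low Tfh against PD1-intermediate Th, PD1-low Th against naive cells and Venus-low Tfh against PD1-low Th, and the last was 3 with a robust trended variance. Fitting only the arrays of the groups compared gave 2 for Venus-high Tfh, 0 for Venus-low Tfh and 3 for PD1-intermediate Th against naive cells, and 0 for each Tfh group against PD1-low Th. Without set 1 PD1-intermediate Th against naive cells gave 3, and without set 2 the counts were 1 for each Tfh group and 0 for PD1-intermediate Th against naive cells and 0 for each Tfh group against PD1-low Th, with fewer arrays in each. Leaving out 1 array at a time gave 2 to 5 for Venus-high Tfh, 1 to 5 for Venus-low Tfh, 0 to 5 for PD1-intermediate Th and 0 to 1 for PD1-low Th against naive cells, 0 to 2 for each Tfh group against PD1-low Th, 0 to 1 for PD1-intermediate against PD1-low Th, 0 to 0 for both other comparisons, and 6 to 11 and 7 to 13 for the F tests of sort group and array set. In the settings named from quantile normalization to the omission of sets, the share of all probe sets called ran from 3.17% to 14.6% and 2.89% to 14.5% for Venus-high and Venus-low Tfh against naive cells, 1.4% to 12.6% for PD1-intermediate and 0% to 0.139% for PD1-low Th against naive cells, 1.9% to 12.9% and 1.4% to 11.9% for Venus-high and Venus-low Tfh against PD1-low Th, and 0% to 0.612% for Venus-low Tfh against PD1-intermediate Th. Beyond fewer arrays or probe sets, the cause of these changes was not tested. With 2 or 3 arrays per group and 7 residual degrees of freedom, or 5 with array set, small differences such as those of Egr1 could not be settled.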
